A study of Mus musculus with 79 samples.

Results

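The comparison set the frontal cortex of APP/PS1 mice against that of wild-type (WT) littermates, with both groups infused with phosphate-buffered saline (PBS). Its members are the 19 arrays, of 79 in the series, whose labels give frontal cortex and PBS: 8 from APP/PS1 animals and 11 from WT animals, 1 array an animal. All animals were female. Each had a cannula in the right lateral ventricle and an osmotic pump, which delivered 6 µL of vehicle daily over 14 days, beginning at an age of 18 weeks. Tissue was taken from the left hemisphere, in front of a single coronal cut, at about 20.5 weeks. That was 17 days after surgery for all but APP/PS1 replicate 7, which was collected after 14 days. The protocol in the labels speaks of 10 animals a group, which neither array number matches. The series as a whole tested an antisense oligonucleotide against Cd33, a sialic acid-binding receptor of myeloid cells, at 75 µg per day in APP/PS1 mice. The 21 cortical arrays of its oligonucleotide groups enter here only through the shared estimate of the spread.

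APP/PS1 here is a double transgenic line, known to carry mutant human transgenes under a Thy1 promoter cassette that is active in neurons, and to form cortical amyloid plaques early in adult life. Both groups share the cannula, the pump and the saline. The series holds no group without surgery, so a response to surgery that differs by genotype cannot be told apart here. The tissue was whole cortex. In such bulk RNA, fewer or more cells of a type and less or more RNA per cell cannot be told apart.

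Microglia are the resident macrophages of the brain. They clear debris through receptors such as TREM2, which signals through the adaptor TYROBP, and around amyloid deposits they are known to leave their surveying state and to express genes of phagocytosis, lysosomes and lipid handling. Astrocytes near deposits are known to raise Gfap and other filament and acute-phase genes. Type I interferons induce a further set of genes in all of these cells through a response element in their promoters. The gene lists below follow these roles.

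The arrays were similar in depth. Between 13157 and 13766 of 25697 probes were detected on an APP/PS1 array (detection p under 0.05 against the negative control beads) and between 13122 and 13600 on a WT array. The arrays lay on 5 slides, each of which held both genotypes. Cortical neuron markers identified the tissue: the vesicular glutamate transporter Slc17a7 stood at 12.81 ± 0.242 (log2 signal, SD, n = 8) in APP/PS1 and 12.82 ± 0.117 (n = 11) in WT. Markers of the striatum, which lies next to the cut, varied widely within both groups. The mean of 9 of them ran from 7.82 to 9.49 (median 9.29) on the APP/PS1 arrays and from 7.75 to 9.44 (median 9.15) on the WT arrays. Of the 9 markers 0 were called between the genotypes, where 4.18% of all probes were. Their differences leaned towards APP/PS1, with 8 of 9 positive and a median of 0.21. With the marker mean as a covariate, an alternative added only once the values were known, 543 probes were called.

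One animal stood apart. On APP/PS1 replicate 5, 16 of 10094 genes lay at least 1 log2 unit above all the other 18 arrays, whereas 0 genes did so on any of the other arrays. They include 4 genes of MHC class II (Cd74, H2-Aa, H2-Ab1 and H2-Eb1), and their values are given with that group.

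Of 14581 probes tested, 609 (4.18%) were called by limma at a Benjamini-Hochberg adjusted p under 0.05. The calls were one-sided: 534 probes (3.66% of those tested) were higher in APP/PS1 and 75 (0.514%) were lower. They belonged to 405 named genes that rose and 45 that fell, counting 1 probe a gene. Among the rises 137 probes changed by 1 log2 unit or more, and among the falls 0 did so. The groups did not overlap at 245 probes that were higher on all 8 APP/PS1 arrays (1.68%) and at 6 that were lower on all of them (0.0411%). The median difference over all probes was -0.03. On 4 of the 21 oligonucleotide arrays Thy1 lay at WT levels (13.81 to 14.01, against 14.54 or more on the others), against their APP/PS1 label, and those arrays enter the shared spread. Each SE and adjusted p of this fit rests on the spread of all 40 cortical arrays, while each SD is that of 1 PBS group. At the complement gene C1qa the SE was 0.150, beside SDs of 0.153 in APP/PS1 (n = 8) and 0.122 in WT (n = 11). A fit to the 19 PBS arrays alone called 755 probes, 614 higher and 141 lower. Under the alternatives that kept all 19 arrays the count of rises ran from 403 to 614, and that of falls from 25 to 159.

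**Figure D1:**
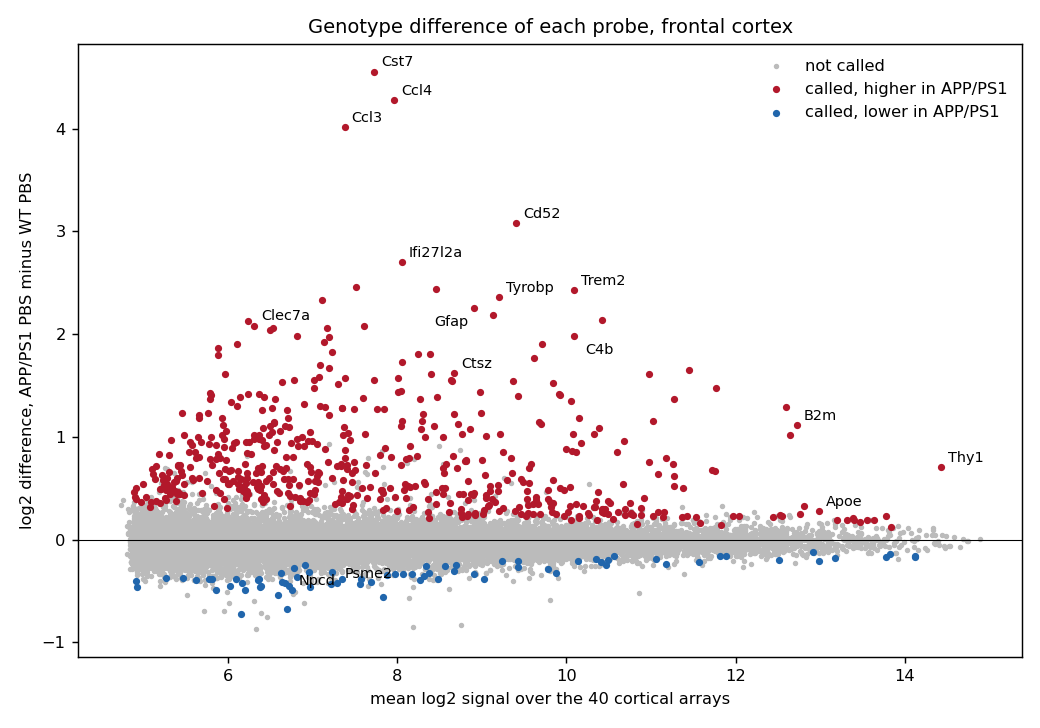
Each point is a probe tested in the frontal cortex, with the mean log2 signal over the 40 cortical arrays on the horizontal axis and the log2 difference, APP/PS1 PBS minus WT PBS, on the vertical axis. Colours mark the 534 probes called higher and the 75 called lower, and the called rises reach 4.55 while no called fall reaches -1.

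Thy1 checks the genotype labels, since its cassette carries the transgenes of this line. It ran from 14.59 to 14.80 (median 14.71) on the APP/PS1 arrays and from 13.85 to 14.14 (median 14.00) on the WT arrays. All 19 arrays therefore fell on the side their label gives. The fitted difference was 0.71 (SE 0.101, limma adjusted p = 1.51e-06). The probe for App, the mouse gene that corresponds to one transgene, ran from 12.40 to 12.80 in APP/PS1 and from 12.58 to 12.93 in WT, with a difference of -0.11 (SE 0.0601, adjusted p = 0.408). Of 15 measured genes of amyloid precursor processing and amyloid degradation, 0 were called, and their median difference was -0.01. Cd33 itself rose by 0.84 (SE 0.148, adjusted p = 7.15e-05), from 5.83 ± 0.235 in WT to 6.67 ± 0.236 in APP/PS1, and the groups did not overlap.

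The largest differences belonged to genes that microglia express near plaques. Cst7, which encodes the cysteine protease inhibitor cystatin F, was detected on 0 of the 11 WT arrays (4.53 to 4.85, median 4.78) and on all 8 APP/PS1 arrays (8.70 to 9.71, median 9.41). Because the WT values are background, the change is a bound: Cst7 was at least 17.9-fold higher in APP/PS1, with measured means of 9.27 ± 0.388 and 4.72 ± 0.115 and a fitted adjusted p of 9.16e-10 from limma. The bound takes, for each WT array, the higher of its own value and the lowest value of a detected probe there. The chemokine Ccl3 was likewise undetected in all WT animals, with a bound of at least 11.7-fold higher in APP/PS1 (8.66 ± 0.380 against 4.65 ± 0.203, adjusted p = 1.69e-12). Its neighbour Ccl4, detected on 1 WT array, ran from 8.78 to 9.59 in APP/PS1 and from 4.66 to 5.23 in WT, a fitted difference of 4.27 (SE 0.284, adjusted p = 6.88e-15). At each of these genes every APP/PS1 array stood far above every WT array. Cd52, a small glycoprotein of leukocyte membranes, rose by 3.08 (SE 0.234, adjusted p = 3.15e-13) from a level that was detected in every WT animal (7.20 ± 0.242).

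**Figure D2:**
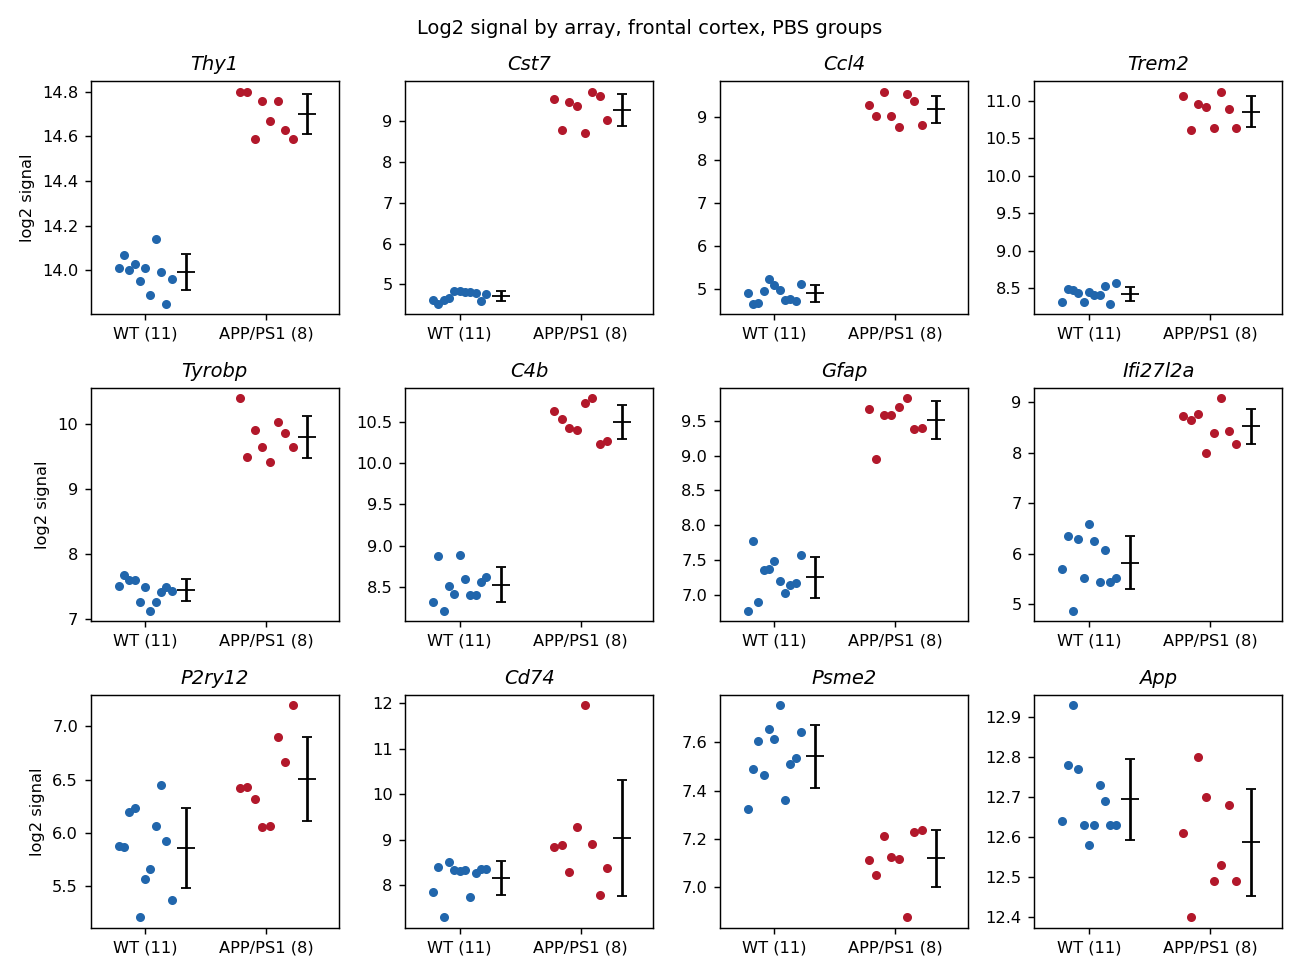
Log2 signal of 12 genes on each of the 11 WT and 8 APP/PS1 cortical arrays, with the mean and SD of each group beside the points; each panel has its own scale, which does not start at 0. Thy1, Cst7, Ccl4, Trem2, Tyrobp, C4b, Gfap and Ifi27l2a separate the genotypes, Psme2 separates them downwards, P2ry12 and App overlap, and a single APP/PS1 array stands out at Cd74.

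TREM2 and the ITAM signalling genes behind it rose as a whole. All 9 measured members were called higher, with a median difference of 1.61. Trem2, the lipid-sensing receptor, ran from 10.61 to 11.12 (median 10.90) in APP/PS1 and from 8.29 to 8.57 (median 8.44) in WT, a difference of 2.43 (SE 0.252, adjusted p = 9.16e-10). Tyrobp, its signalling adaptor, ran from 9.41 to 10.40 and from 7.13 to 7.68, a difference of 2.36 (SE 0.227, adjusted p = 1.56e-10). The groups did not overlap at either gene. Fcer1g, the ITAM adaptor of Fc receptors, rose by 1.61, as did the linker Lat2. Downstream, the guanine nucleotide exchange factor Vav1 rose by 1.27 and the phospholipase Plcg2 by 0.97. The inhibitory side moved the same way: the phosphatase Ptpn6 (SHP-1) rose by 1.73 and the lipid phosphatase Inpp5d (SHIP1) by 0.91. Slamf9 and Cd84, of the SLAM receptor family, rose by 2.44 and 1.92.

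PU.1, the transcription factor of myeloid cells, binds a purine-rich core. The bases shown lie around a match to GAGGAAGT, on either strand, in promoters of genes that rose here; capitals mark the match, and the sequences and positions are those of RefSeq (GRCm38.p6), 5′ to 3′ on the strand of the gene. They are shown because 2 belong to the TREM2 and ITAM list, 1 to complement and 1 to the largest rises.
Inpp5d (chr1:87620232-87620311, plus strand): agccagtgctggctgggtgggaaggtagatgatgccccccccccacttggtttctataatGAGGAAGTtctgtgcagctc
Vav1 (chr17:57279029-57279099, plus strand): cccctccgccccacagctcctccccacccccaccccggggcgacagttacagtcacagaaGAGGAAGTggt
C1qc (chr4:136893042-136893164, minus strand): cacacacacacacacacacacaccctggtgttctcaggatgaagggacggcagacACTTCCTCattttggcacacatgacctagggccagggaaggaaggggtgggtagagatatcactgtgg
Slamf9 (chr1:172475292-172475359, plus strand): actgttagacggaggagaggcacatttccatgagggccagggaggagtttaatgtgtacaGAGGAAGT
In the 250 bases before a transcript start, the core was present in 23 of the 314 risen genes with a promoter in the table (7.32%), in 1 of 38 that fell (2.63%), in 2.68% of the 8176 tested genes with one and in 2.79% of all 27025 genes. In Vav1, Inpp5d and Slamf9 the match began 11, 20 and 8 bases before the start. A match describes the sequence and is not evidence of binding. Spi1, the gene of PU.1 itself, was detected on 3 APP/PS1 arrays and 1 WT array, and its difference of 0.37 (adjusted p = 0.0428) was lost with slide as a block and in 13 of the 19 fits that left out an array. The interferon regulatory factors Irf5 and Irf8 rose by 1.38 and 1.30, and of 11 myeloid transcription factors measured these 3 were called.

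Receptors that recognise microbial and plaque-type ligands rose in 7 of 8 cases, with a median of 1.14, or 0.96 with undetected genes at their bound. Clec7a (Dectin-1) was undetected in all WT animals, with a bound of at least 3.48-fold higher in APP/PS1 (6.91 ± 0.329 against 4.82 ± 0.178, adjusted p = 8e-09). Tlr2 rose by 1.83, its co-receptor Cd14 by 1.47 and the nucleic acid sensor Tlr7 by 1.05, while Tlr13 was at least 1.83-fold higher. The TAM receptor Axl, which binds dying cells, rose by 0.76 (SE 0.0960). Its relative Mertk was the member that did not pass the test (0.26, adjusted p = 0.221).

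Of 6 Fc receptor genes 5 were called higher, with a median of 1.48. The activating receptors Fcgr3 and Fcgr1 rose by 1.39 and 1.10, and the inhibitory Fcgr2b by 1.58. Fcgr4 ran from 6.30 to 8.71 (median 6.64) in APP/PS1 and from 5.003 to 5.618 (median 5.44) in WT. Its top value is that of replicate 5, at which the other 7 arrays end at 7.39, and the call held without that animal. The neonatal receptor Fcgrt was the member that was not called.

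Complement rose at its first steps. C1qa, C1qb and C1qc, which build the recognition molecule, rose by 1.55 (SE 0.150), 1.47 (SE 0.127) and 1.37 (SE 0.135). C1qa ran from 9.43 to 9.85 (median 9.67) in APP/PS1 and from 7.96 to 8.29 (median 8.11) in WT. C4b, which is cleaved by the C1 complex and is made by glia, ran from 10.23 to 10.79 and from 8.21 to 8.89, a difference of 1.98 (SE 0.145, adjusted p = 1.27e-13). The groups did not overlap at any of these 4 genes. The membrane inhibitor Cd59a and the C1 inhibitor Serping1 were not called, and the median over the 6 measured members was 1.42.

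Chemokines known from activated myeloid cells rose. Besides Ccl3 and Ccl4, Ccl12 rose by 1.55, Cxcl16 by 1.32 and Ccl9 by 1.27, and Ccl6 was at least 2.62-fold higher. Cxcl10, which is induced by interferon, ran from 5.77 to 7.48 in APP/PS1 and from 4.46 to 5.55 in WT, where it was detected on 3 arrays (difference 1.62, SE 0.366, adjusted p = 0.00294). Others were not called. Neuronal Cx3cl1 differed by -0.13 (adjusted p = 0.259), Cxcl12 by -0.04 (adjusted p = 0.906) and Cxcl14 by 0.01 (adjusted p = 0.980). In all, 7 of 13 measured chemokines were called, with a median of 1.27.

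Classical cytokines of acute inflammation were close to background. Il1b was detected on 3 arrays of each genotype, with a difference of 0.14 (SE 0.164, adjusted p = 0.753). Il1a was detected on 5 APP/PS1 arrays and 0 WT arrays, and its difference did not pass the test (adjusted p = 0.266). Tnf and Il1rn were detected on fewer than 8 cortical arrays and were not tested. The growth factor and TGF-beta genes of the same list did change: Igf1 rose by 1.15 (SE 0.210), Tgfb1 by 1.06 (SE 0.142), and the receptors Tgfbr2 and Tgfbr1 by 1.15 and 0.85. Csf1, the survival factor of microglia, rose by 0.55 and the receptor Il10ra by 0.98. Altogether 6 of 13 members were called higher, with a median of 0.32.

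Genes of surveying, or homeostatic, microglia rose as well. Of 14 measured members 13 were called higher and 0 lower, with a median of 1.11. Tmem119, a membrane protein restricted to microglia within the brain, ran from 8.63 to 9.26 (median 8.92) in APP/PS1 and from 7.88 to 8.40 (median 8.08) in WT, a difference of 0.76 (SE 0.128, adjusted p = 3.29e-05) with no overlap. The fractalkine receptor Cx3cr1 rose by 1.13, the scavenger receptor-like Fcrls by 1.43, Siglech by 1.22 and Gpr34 by 1.15. P2ry12, the receptor that steers processes to ATP, rose less: it ran from 6.06 to 7.20 and from 5.21 to 6.45, so the groups overlapped, with a difference of 0.65 (SE 0.175, adjusted p = 0.0180) whose call was lost in 2 of the 19 fits that left out an array. Its relative P2ry13 rose by 0.80 (SE 0.126). The transcription factor Sall1 was the member that was not called. These differences sit well below the 2.43 of Trem2 and 2.36 of Tyrobp on the same arrays, a comparison of differences and not of levels.

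General leukocyte genes of the surface and the actin cytoskeleton rose in 15 of 16 cases, with a median of 0.98. Besides Cd52, the actin-capping Capg rose by 2.06 and the tetraspanins Cd37 and Cd9 by 1.34 and 1.03. Among the 20 genes with the largest rises stood several others of myeloid cells: the peptide transporter Slc15a3 (2.46), the amino acid oxidase Il4i1 (2.04), the small GTPase Arl11 (1.98), the medium-chain fatty acid receptor Gpr84 (1.97) and the Toll-like receptor homologue Cd180 (1.91). Lag3 and Havcr2, which encode immune checkpoint receptors, rose by 1.56 and 1.55; they were chosen after their values were seen. Lyz2 and Lyz1 rose by 1.77 and 1.65, but these genes are near-identical copies and their probes may not tell them apart.

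Across the 108 genes that rose by 1 log2 unit or more, 101 had groups that did not overlap, against 1.68% of all tested probes. These genes were picked by their difference on the same arrays, so a high share was built in. APP/PS1 replicate 6 held the top value of its group at 66 of the 108 genes and replicate 2 the lowest at 66, while the median deviation of an array from its group was between -0.32 and 0.30. The same animals were thus at the top or the bottom of their group over many genes. Over the 8 APP/PS1 arrays, Tyrobp and Cst7 gave r = 0.799 (exact permutation p = 0.0164, adjusted over 6 pairs 0.0984) and rho = 0.881 (exact permutation p = 0.00724, adjusted 0.0435). Without the 2 arrays farthest from the median of Tyrobp, r was 0.911. Tyrobp with Gfap gave r = 0.452 (exact permutation p = 0.265, adjusted 0.529) and rho = 0.381 (p = 0.360, adjusted 0.720), and r was 0.806 without the 2 farthest arrays, so its size rests on those arrays. Thy1 with Cst7 gave r = 0.039 (exact permutation p = 0.928, adjusted 0.928) and rho = 0.0242 (p = 0.968, adjusted 0.968). The other 3 pairs, of Tyrobp with Ifi27l2a and C4b and of Thy1 with Gfap, gave r of 0.535, 0.147 and -0.0736, with adjusted exact permutation p of 0.516, 0.928 and 0.928. Without the 2 farthest arrays these were 0.607, 0.321 and -0.161, and r of Thy1 with Cst7 was -0.00587.

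**Figure D3:**
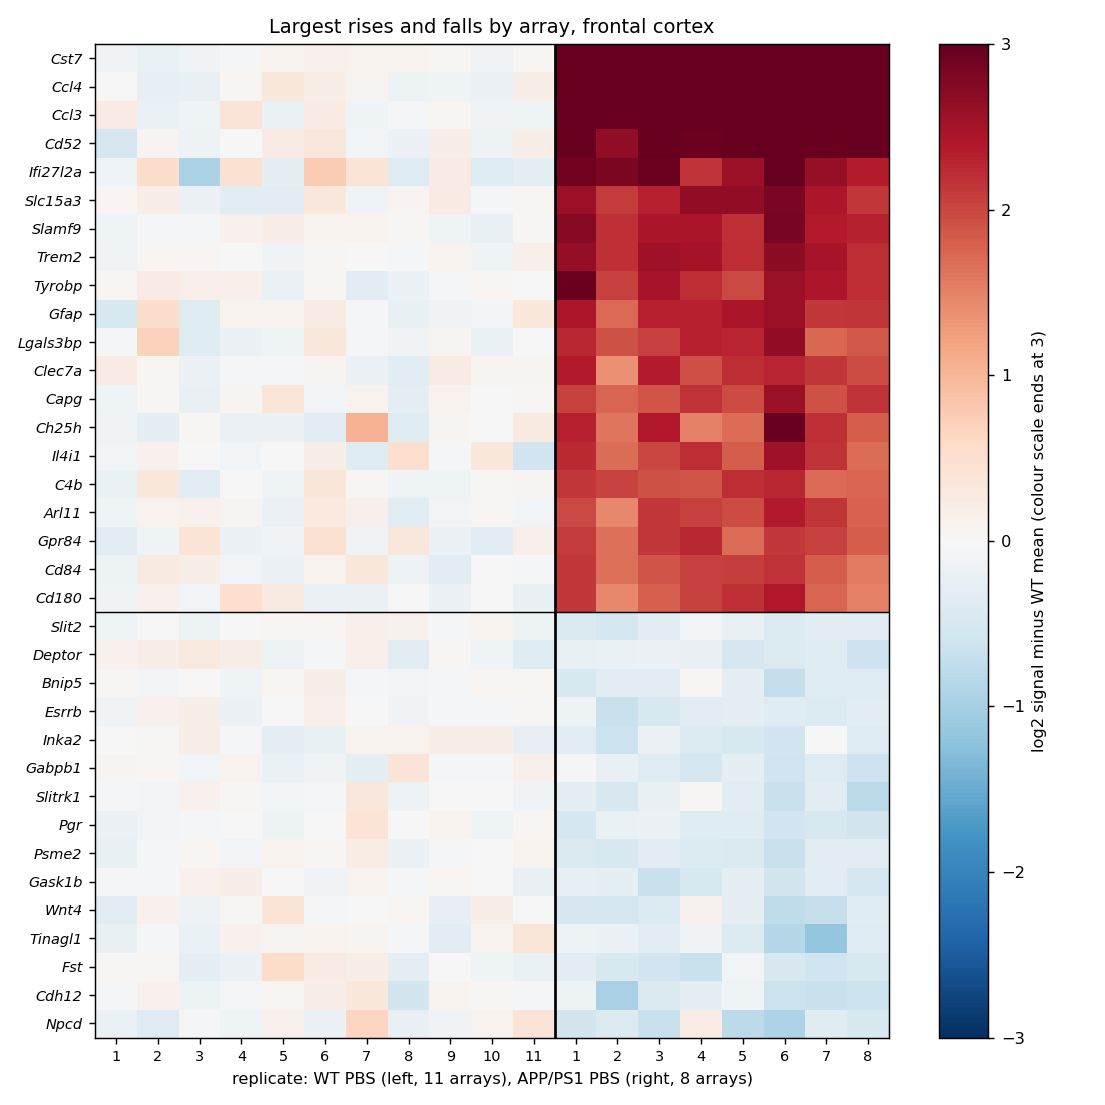
Log2 signal of the 20 genes with the largest rises and the 15 with the largest falls, as the difference from the WT mean, on each of the 11 WT arrays (left) and 8 APP/PS1 arrays (right); the colour scale ends at 3, below the values of the top genes. The rises cover all 8 APP/PS1 arrays, while the falls are of less than 0.5 on average and vary between arrays.

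Of 13 proteases and protease inhibitors 8 were called higher, with a median of 0.48. The cathepsins Ctsz, Ctsh and Ctsc rose by 1.62 (SE 0.183), 1.13 (SE 0.132) and 0.77 (SE 0.155). The abundant Ctsb rose by 0.33 (SE 0.0707), and legumain (Lgmn) by 0.50. Ctsd, whose probe was dim, differed by 0.35 (adjusted p = 0.293). Ctss rose by 1.08, with 1 APP/PS1 array, at 5.41, inside the WT range.

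Of 16 lysosomal hydrolases and membrane proteins 11 were called higher, with a median of 0.58. The beta-glucuronidase Gusb rose by 1.53 (SE 0.188). It ran from 9.90 to 10.59 (median 10.25) in APP/PS1 and from 8.54 to 8.90 (median 8.70) in WT. The metal transporter Slc11a1 rose by 1.42, progranulin (Grn) by 1.15 (SE 0.119), the hexosaminidase subunit Hexa by 0.88 and the mannosidase Man2b1 by 0.80. Lamp2 rose by 0.54 at all 4 of its probes. Gpnmb, a marker of lipid-laden macrophages, rose by 0.77 (SE 0.189, adjusted p = 0.00715) with overlapping groups, and its difference within a slide ran from -0.12 to 1.35. The lysosomal motif TCACGTGA, searched on both strands, was in 0 of the 16 promoters of these genes, in 2 of 10 of the protease list (Ctsa and Ctsd) and in 1.65% of tested genes.

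In lipid transport and storage 5 of 13 genes rose, with a median of 0.20. Ch25h, which makes 25-hydroxycholesterol, rose by 2.06 (SE 0.249, adjusted p = 4.01e-08). The lipoprotein lipase Lpl rose by 0.85. Apoe, the main lipoprotein of the brain, lay high in both genotypes (12.88 to 13.34 against 12.67 to 12.96) and rose by 0.28 (SE 0.0740, adjusted p = 0.0160), a call lost in 2 of 19 fits without an array and with median centring. Clu rose by 0.23 (SE 0.0504), a call also lost with median centring. Lgals3, a galectin of phagocytes, gave a difference of 1.27 (SE 0.275, adjusted p = 0.00170) with overlapping groups, and replicate 5, at 8.46, lay above the other APP/PS1 arrays, which ended at 7.32. Without that array the difference of Lgals3 was 1.06 (adjusted p = 0.00997).

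Interferon-stimulated genes formed the broadest further group. Of 25 measured members 14 were called higher, 0 lower and all 25 differences were positive, with a median of 0.72. The fit to the 19 arrays called 20 of them, and without replicate 6 the count was 10. Ifi27l2a, a mitochondrial protein induced by interferon, ran from 7.99 to 9.07 (median 8.54) in APP/PS1 and from 4.87 to 6.59 (median 5.69) in WT, a difference of 2.70 (SE 0.236, adjusted p = 1.33e-11). Lgals3bp, a secreted scavenger-receptor protein, rose by 2.13 (SE 0.198) and the oligoadenylate synthetase-like Oasl2 by 1.57 (SE 0.248), both without overlap. Usp18, which removes ISG15 from proteins, ran from 7.65 to 9.00 and from 6.38 to 8.42 (difference 1.44, SE 0.243, adjusted p = 3.3e-05). Ifit3 ran from 10.12 to 11.00 and from 8.95 to 10.66 (difference 1.09, SE 0.182). WT replicate 2 was the top of its group at both Usp18 (8.42) and Ifit3 (10.66), followed by replicate 6 with 7.85 and 10.09. At Usp18 both of these WT arrays lay above the lowest APP/PS1 array, and at Ifit3 only replicate 2 did. WT replicate 2 was also the highest of the WT arrays at 24 of the 108 genes that rose by 1 log2 unit or more, among them Tyrobp (7.68) and Cx3cr1 (8.63). WT replicate 6 was the highest at 23 of the 108 and WT replicate 11 at 17. Smaller rises were seen for Ifitm3 (0.74), Irf9 (0.72), Parp14 (1.02) and Mx2 (0.78). Isg15 (0.74, adjusted p = 0.0385) and Gbp3 (0.82, adjusted p = 0.0443) were called but lost the call in 13 and 15 of the 19 fits that left out an array.

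The interferon-stimulated response element was searched as a pair of GAAA repeats with any 2 bases between them, on either strand. Promoter stretches with a match are shown for genes that rose, because this element is the sequence known to bring such genes under interferon control. Capitals mark the match, and the source is RefSeq (GRCm38.p6), 5′ to 3′ on the strand of the gene.
Ifit3 (chr19:34583347-34583476, plus strand): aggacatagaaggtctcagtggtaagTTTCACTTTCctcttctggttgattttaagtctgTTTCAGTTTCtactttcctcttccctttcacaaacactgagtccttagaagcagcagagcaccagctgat
Isg15 (chr4:156200819-156200944, minus strand): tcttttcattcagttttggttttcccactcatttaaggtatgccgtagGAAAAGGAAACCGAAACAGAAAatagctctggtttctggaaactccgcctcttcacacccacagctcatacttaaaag
Trim30a (chr7:104465194-104465289, minus strand): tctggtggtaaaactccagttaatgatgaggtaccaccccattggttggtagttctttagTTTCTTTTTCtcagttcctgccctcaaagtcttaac
Cxcl10 (chr5:92349033-92349139, minus strand): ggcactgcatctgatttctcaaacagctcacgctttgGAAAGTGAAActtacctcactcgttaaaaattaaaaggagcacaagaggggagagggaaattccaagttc
B2m (chr2:122147488-122147617, plus strand): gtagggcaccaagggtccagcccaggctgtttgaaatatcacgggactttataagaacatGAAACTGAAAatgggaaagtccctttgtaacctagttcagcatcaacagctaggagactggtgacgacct
Ifit3 carries a pair of separate matches and Isg15 overlapping ones. In the 250 bases before the start the element was present in 9 of the 18 interferon-list genes with a promoter in the table, a list made of genes known to respond to interferon. Among all risen genes, list members included, it was present in 26 of 314 risen genes (8.28%) and in 1 of 38 that fell (2.63%), against 3.2% of tested genes and 3.46% of all 27025. The interferon-list member Trim30a, an E3 ligase, rose by 0.73 and was detected on 6 APP/PS1 arrays and 1 WT array.

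MHC class I genes rose in part. B2m, the invariant light chain, ran from 12.52 to 13.51 (median 13.04) in APP/PS1 and from 11.65 to 12.11 (median 11.88) in WT, a difference of 1.11 (SE 0.140, adjusted p = 1.08e-07) with no overlap. The non-classical H2-T23 and H2-M3 rose by 0.85 and 0.69, and the immunoproteasome subunit Psmb9 by 0.93. Without replicate 5 the difference of H2-T23 was 0.72 (adjusted p = 0.0490) and that of Psmb9 0.78 (adjusted p = 0.0545), which ends the call of Psmb9. Of 15 members 6 were called higher and 1 lower, with a median of 0.60, or 0.56 with H2-D1 at its bound. The fit to the 19 arrays called 12 higher, and without replicate 5 the count was 4. Psme2, a subunit of the proteasome activator that interferon-gamma induces, went the other way. It ran from 6.88 to 7.24 (median 7.12) in APP/PS1 and from 7.33 to 7.75 (median 7.54) in WT, so all 8 APP/PS1 arrays lay below all 11 WT arrays (difference -0.42, SE 0.122, adjusted p = 0.0332). The call was lost in 7 of the 19 fits without an array, and its partner Psme1 differed by 0.29 (adjusted p = 0.0978). Mouse Psme2 has a near-identical processed copy, and probe sequences were not used here, so which copy the probe reads is not known.

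MHC class II antigen-presenting molecules were high in 1 animal. Cd74, the invariant chain, stood at 11.96 on APP/PS1 replicate 5, between 7.79 and 9.28 on the other 7 and between 7.30 and 8.53 on the WT arrays. H2-Ab1 stood at 11.09, against 6.40 to 8.44 and 6.47 to 7.91. H2-Eb1 stood at 10.11, against 5.61 to 7.43 and 6.58 to 7.37. None of these 3 was called (adjusted p = 0.284, 0.486 and 0.926), and without replicate 5 the difference of H2-Eb1 was -0.30. The loading factors H2-DMb1 and H2-DMa did rise, by 1.10 (SE 0.215) and 0.59 (SE 0.153), without overlap, though the call of H2-DMa was lost with median centring. The median of the 6 measured members was 0.65 with replicate 5 and 0.36 without it.

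The same animal stood at least 1 log2 unit above all others at the interferon-gamma-type GTPases Gbp2 (10.35), Igtp (9.90) and Irgm2 (9.61), the class I regulator Nlrc5 (6.78), the chemokines Ccl5 (8.02) and Ccl8 (6.05), and the T cell co-receptor Cd8b1 (7.59). Cd8b1 reached at most 5.39 on the other APP/PS1 arrays and 5.07 on WT arrays. The T cell receptor component Cd3g was at 6.63, against at most 4.95 and 5.18. Cd3e, of the same receptor complex, was at 5.62 and did not stand out, since another APP/PS1 array reached 5.91, and Cd4 was not detected. The B cell gene Cd79b, at 5.22, lay within the range of the others. In the hippocampus of that animal 13 of the 16 genes were also above all other PBS arrays. Its Tyrobp (9.41) and Cst7 (8.70) were the lowest of the APP/PS1 group. These genes were singled out after their values were seen.

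**Figure D4:**
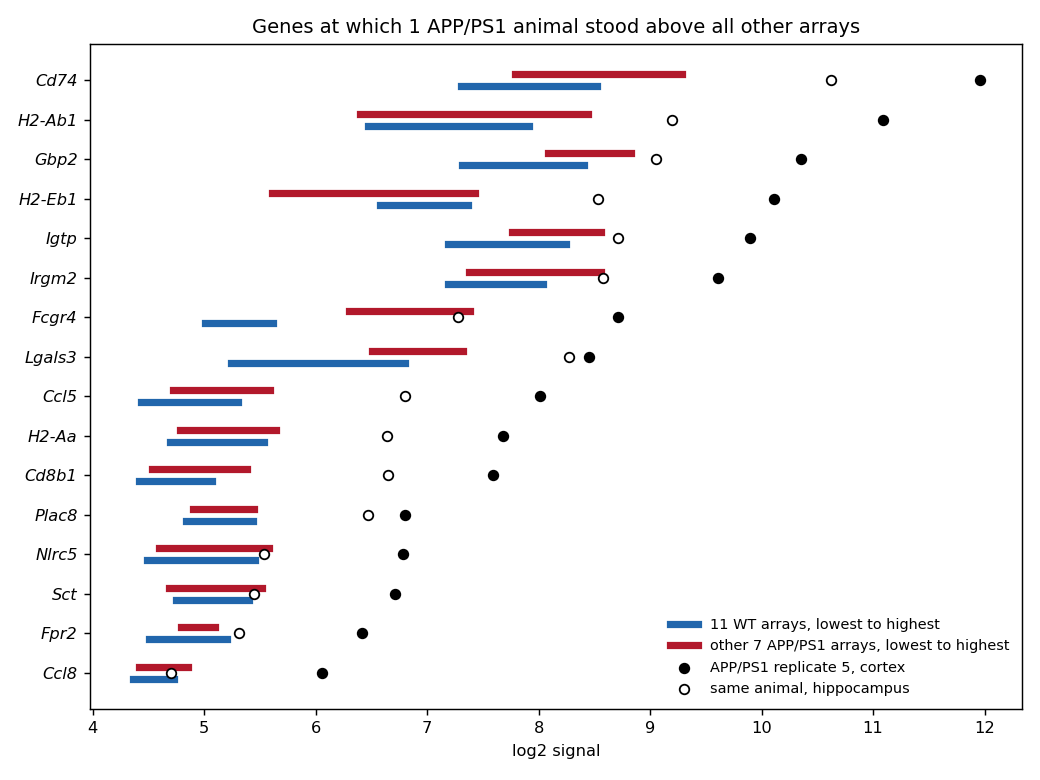
Log2 signal of the 16 genes at which APP/PS1 replicate 5 (filled circles) lay at least 1 unit above the other 18 cortical arrays, with bars from the lowest to the highest value of the 11 WT arrays and of the other 7 APP/PS1 arrays, and open circles for the hippocampus of the same animal. Cd74 is at 11.96 in the cortex and 10.62 in the hippocampus of this animal.

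Reactive astrocyte genes changed unevenly. Gfap, the intermediate filament, ran from 8.95 to 9.82 (median 9.58) in APP/PS1 and from 6.78 to 7.78 (median 7.20) in WT, a difference of 2.26 (SE 0.185, adjusted p = 2.49e-12). The serine protease inhibitor Serpina3n ran from 9.61 to 10.55 and from 8.49 to 8.79, a difference of 1.41 (SE 0.128, adjusted p = 4.03e-11). The groups did not overlap at either gene. The oncostatin M receptor Osmr rose by 0.80 (SE 0.137), Aspg by 0.68 (SE 0.137) and vimentin (Vim) by 0.44 (SE 0.118, adjusted p = 0.0179), of which the call of Vim was lost with median centring and in 1 of the 19 fits that left out an array. Lcn2, an acute-phase lipocalin, was detected on 3 arrays of each genotype and differed by 0.10 (SE 0.376, adjusted p = 0.937), with single high values in both groups (7.08 and 7.52). Timp1 did not pass the test (0.39, adjusted p = 0.549). In all 6 of 17 members were called higher, with a median of 0.18, and 4 without replicate 6.

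Genes of astrocyte identity showed much smaller values. The water channel Aqp4 differed by 0.47 (SE 0.152, adjusted p = 0.0775) and the folate enzyme Aldh1l1 by 0.23 (SE 0.0849, adjusted p = 0.132). Of 14 members only the receptor Gpr37l1 was called (0.23, adjusted p = 0.0317), and not with slide as a block. In cholesterol synthesis only Fdps of 12 members was called (0.27, adjusted p = 0.0399), a call lost in 13 of the 19 fits without an array. Over all probes 3.66% were called higher in the fit to all cortical arrays, so a single call there in lists of this size is near the background. The fit to the 19 arrays called 3 of the 14 astrocyte identity genes higher, Aqp4 among them, and 5 of the 12 of cholesterol synthesis. It called 614 of all 14581 probes higher. Of the 14 astrocyte identity differences 13 were positive.

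**Figure D5:**
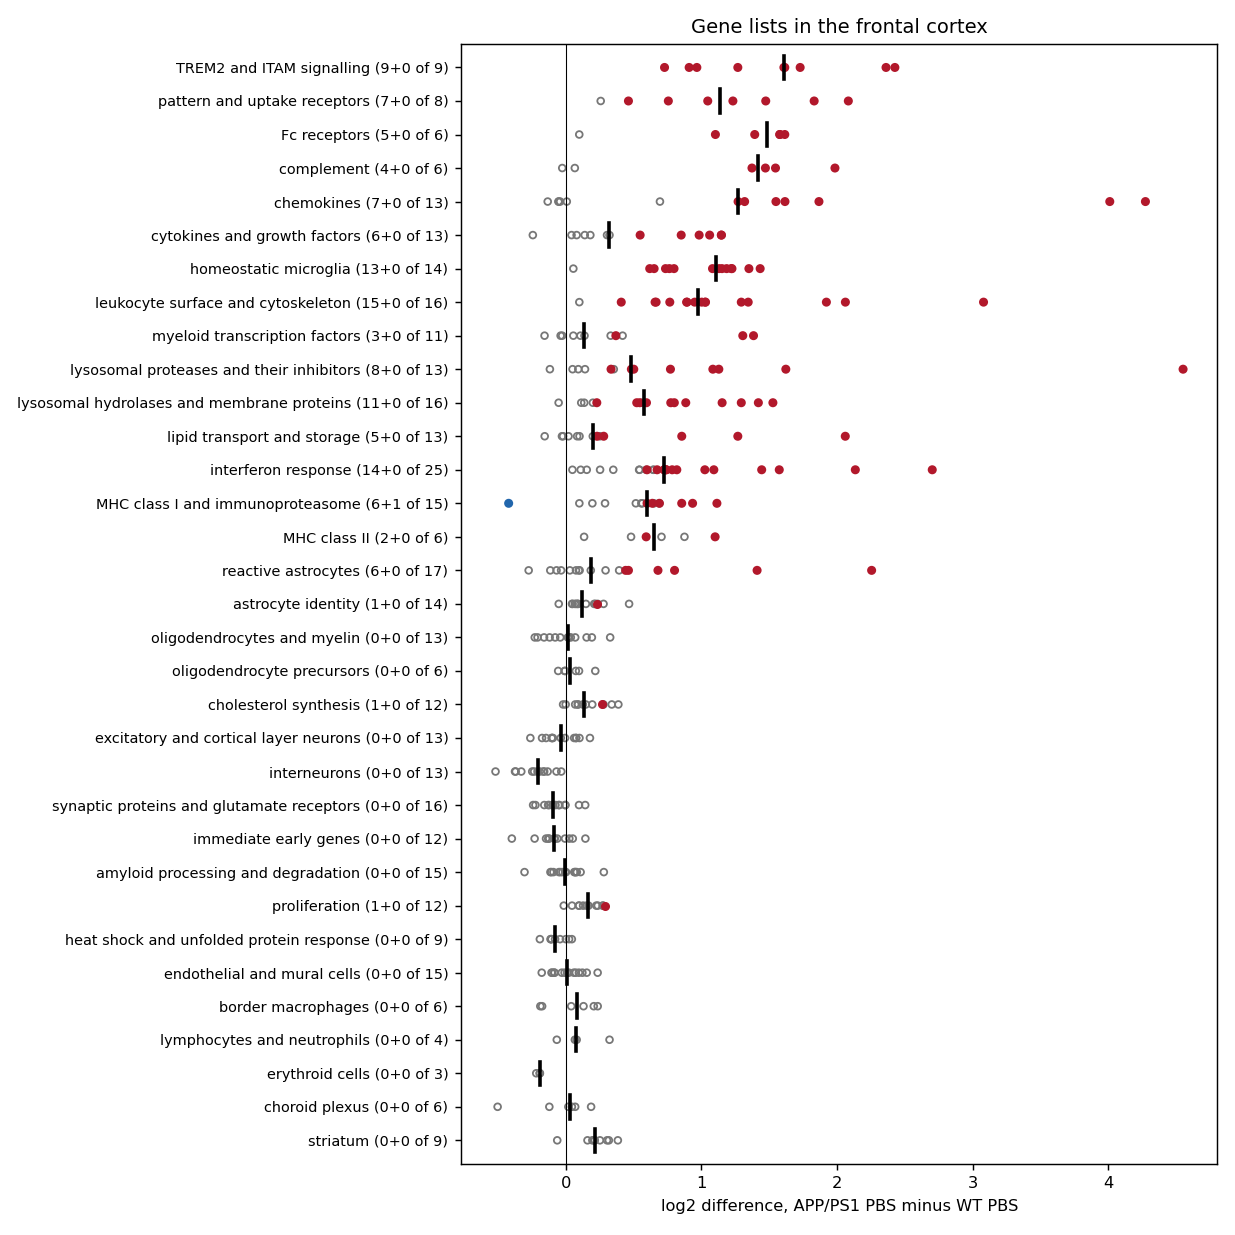
Each circle is a measured gene of a list at its log2 difference, APP/PS1 PBS minus WT PBS, filled red where called higher and blue where called lower; the black bar is the list's median, and the numbers after a name give called higher plus called lower of measured. The 9 TREM2 and ITAM genes lie between 0.73 and 2.43, whereas the excitatory neuron, oligodendrocyte and vascular lists have medians near 0. All 13 interneuron genes lie below 0, with a median of -0.21, and 2 of the 16 synaptic genes lie above it.

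Falls were small. The largest among named genes was Npcd (-0.49, SE 0.134, adjusted p = 0.0214, a call lost in 4 of the 19 fits that left out an array), followed by the cadherin Cdh12 (-0.48, SE 0.122, adjusted p = 0.00987), which ran from 5.21 to 6.06 in APP/PS1 and from 5.62 to 6.51 in WT. The groups overlapped there, as they did at 13 of the 15 genes with the largest falls. Gask1b was the other that separated them, besides Psme2, at 6.27 to 6.70 against 6.72 to 7.13 (difference -0.43, SE 0.0975, adjusted p = 0.00341). The axon repellent Slit2 fell by 0.33 (SE 0.0753, adjusted p = 0.00296), a call kept in all 19 such fits. The signalling protein Wnt4 (-0.43), follistatin (Fst, -0.46), the synapse-inducing Slitrk1 (-0.38) and the mTOR inhibitor Deptor (-0.34) were called but lost the call in 1, 7, 5 and 4 of them, and Slitrk1 and Deptor also with median centring. Fst was detected on 1 APP/PS1 and 6 WT arrays, and the progesterone receptor Pgr (-0.41) on 0 and 3, so both are differences close to background.

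The CDK5 activator Cdk5r1 fell by 0.21 (SE 0.0511, adjusted p = 0.00643) and the reticulon Rtn1 by 0.17 (SE 0.0477, adjusted p = 0.0265), at 1 of its 4 probes and with the call lost in 5 of the 19 fits. A pair of subunits of the proton pump V-ATPase fell. Atp6v1g2 fell by 0.16 (SE 0.0368, adjusted p = 0.00246), at 1 of its 2 probes, and Atp6v1e1 by 0.14 (SE 0.0351, adjusted p = 0.0120). The other 15 of the 17 measured were not called. The glutamate transporter Slc17a6 fell by 0.28 (SE 0.0746, adjusted p = 0.0163, lost in 2 of the 19 fits) and the glucosylceramide synthase Ugcg by 0.23 (SE 0.0570). All these genes were named after their values were seen. With median centring the calls of both V-ATPase subunits, Rtn1 and Slc17a6 were lost. A block for replicate number, on the 19 arrays, also lost the calls of both subunits and of Slc17a6. In contrast, 52 of 57 cytosolic ribosomal protein genes had positive differences, with 7 called higher and a median of 0.12. Rps9 rose by 0.22 (SE 0.0549, adjusted p = 0.00931), a call that median centring also removed. The shares called over all probes were 3.66% higher and 0.514% lower. The V-ATPase and ribosomal families were counted after their values were seen.

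No neuronal list reached a call in the fit to all cortical arrays. Over 13 genes of excitatory and layer-specific neurons the median was -0.04 with 0 called, as with Tbr1 (-0.18, adjusted p = 0.259) and Cux2 (0.07, adjusted p = 0.838). Over 16 synaptic genes the median was -0.10, with synaptophysin (Syp) at -0.10 (SE 0.0367, adjusted p = 0.146) and Cplx1 at -0.10 (adjusted p = 0.130). The 13 interneuron genes all had negative differences, with a median of -0.21 and 0 called. Npy differed by -0.25 (SE 0.0920, adjusted p = 0.144), Sst by -0.21 (adjusted p = 0.298) and Pvalb by -0.19 (adjusted p = 0.266). The fit to the 19 arrays called 2 of these 13 lower, among them Npy, which ran from 11.36 to 11.55 in APP/PS1 and from 11.50 to 11.84 in WT. Immediate early genes gave 0 calls of 12, with Egr1 at -0.23 (adjusted p = 0.491). Over all 14581 probes 0.514% were called lower, so 0 calls in lists of this size is near the background.

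Other cell types gave no called change. Of 13 oligodendrocyte and myelin genes, 6 of precursors, 15 of vessels and mural cells, 6 of border macrophages and 9 of heat shock and the unfolded protein response, 0 were called. Mbp differed by 0.02 (SE 0.0468, adjusted p = 0.883) and Pdgfra by 0.10 (adjusted p = 0.694). Mrc1, of macrophages at brain borders, differed by 0.04 (SE 0.120, adjusted p = 0.923), in contrast to the microglial genes above. Of 14 genes of lymphocytes and neutrophils 8 were below the filter and 0 of the other 4 with a probe were called. Among proliferation genes only the helicase subunit Mcm5 was called (1 of 12, 0.29, SE 0.0803, adjusted p = 0.0257). That call was lost in 4 of the 19 fits that left out an array and with median centring, and 3.66% of all probes were called higher. Choroid plexus transcripts varied within both groups: Ttr ran from 5.12 to 8.37 in APP/PS1 and from 5.54 to 7.501 in WT (difference 0.02, adjusted p = 0.987). Haemoglobin Hba-a1 differed by -0.19 (adjusted p = 0.731).

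Set against the hippocampus of the same animals, the genotype difference was larger in cortex at 46 probes (0.301%) and smaller at 3 (0.0196%), of 15290 tested by limma with the animal as a block (0.32% in all). Capg (1.52 log2 units more in cortex, adjusted p = 0.000764) and Serpina3n (1.11 more, adjusted p = 0.000987) were among the 46, while for Trem2 (1.00 more, adjusted p = 0.116) the difference between the tissues did not pass. The tissues lay on separate slides, and some hippocampal slides held only 1 of the PBS groups. Slide was not in this model, so slide differences can enter the contrast.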

How the data were processed

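Total RNA of whole tissue was labelled with biotin and hybridised to Illumina MouseRef-8 bead arrays, per the labels' protocols. The deposited non-normalized table holds, per array and probe, an intensity that is background-subtracted but not normalized between arrays, and a detection p-value, per the file headers. The authors' value table, on a log2 scale and quantile-normalized within each tissue as its values show, served as an alternative; BeadStudio, GenomeStudio and Partek are named in the submitters' processing notes, with no versions. Here limma 3.58.1 in R 4.3.3 applied neqc (background from the detection p, offset of 16, quantile normalization, log2) to all 79 arrays. Probes with a detection p under 0.05 on at least 8 cortical arrays were tested (14581 of 25697). A model with the 4 cortical groups of the series was fitted to 40 arrays with lmFit and eBayes (trend), and a probe was called at a Benjamini-Hochberg adjusted p under 0.05 over all of them. A gene is given by its probe with the highest mean signal, and 833 tested probes have no symbol here.

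Named genes are those fixed by rule (the 20 largest rises, the 15 largest falls, up to 4 called members of each of 33 lists, or 2 where none was called, Thy1, App and Cd33, and a few set markers), and others were named after their values were seen. The members and lists were chosen with earlier results of these data known. Tissue differences used the animal as a block (duplicateCorrelation). Permutation tests were exact and two-sided (scipy 1.17.1). On simulated data for this comparison (14581 probes), 96% of changes of 1 log2 unit, 84% of 0.5, 24% of 0.25 and 32% of -0.25 were recovered. Of the simulated calls 1.67% were false. The simulated noise was independent between probes, without the shifts that an animal shares over many genes. These rates therefore need not hold for the real calls. The number of arrays limits the precision. Alternatives tried were the 19 arrays alone, blocks for slide, surgery session and replicate number, array weights, other background, offset, centring and filters, the authors' table, robust eBayes and leaving out each array.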

Additional observations from a re-analysis of the deposited data

Results flagged for a closer look

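Of 198 named genes, 24 had a value far from the other 7 APP/PS1 arrays by Dixon's criterion, which chance alone meets in about 1 of 20 independent groups. The 24 cannot be set against that rate, since some genes were named after their values were seen and all share the same animals. Replicate 5 was high at 9 of them: Cd74 (log2 signal 11.96), H2-Ab1 (11.09), H2-Eb1 (10.11), H2-Aa (7.683), H2-T23 (10.3), Psmb9 (8.339), Fcgr4 (8.71), Cxcl16 (7.763) and Lgals3 (8.455). Most of these encode antigen presentation molecules. Replicate 6 was high at Oasl2 (9.233), Lag3 (8.69), Selplg (11.0), Vav1 (8.823), Cd44 (5.78) and Clu (14.04), and low at Atp1b1 (13.81), a sodium pump subunit. Replicate 2 was low at Aif1 (8.603), Clec7a (6.198), Atp6v1g2 (13.55) and Itm2b (13.66). Replicate 4 was low at the striatal Rgs9 (10.64), the vesicular GABA transporter Slc32a1 (11.83) and Clic6 (5.852), and it had the lowest striatal marker mean of its group (7.82). Replicate 7, the animal collected after 14 days, was low at Vim (8.311).

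The genotype difference in the cortex exceeded that in the hippocampus of the same animals, by limma with the animal as a block, for several of the genes described above. The excess on the log2 scale was 1.76 for Ccl4 (adjusted p = 0.0042), 1.35 for Ifi27l2a (0.034), 1.2 for Gfap (0.0056), 1.14 for Clec7a (0.038) and 0.995 for C4b (0.00099). Slide, which differs between the tissues, was not in that model. What accounts for these differences was not tested.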

How the results depend on the processing

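The count of called probes (609) and of rises (534) stayed within 1.5 times under every alternative run, while the count of falls (75) did not. Falls numbered 141 in the 19 PBS arrays alone, 119 with slide as a block, 159 with array weights, 25 with median centring and 36 with no filter on detection. Leaving out an array gave 468 to 679 calls, 435 to 546 rises and 33 to 155 falls. The falls moved by over 1.5 times without APP/PS1 replicate 4 (155), replicate 6 (33) or replicate 2 (48), and without WT replicate 7 (45). Replicate numbers did not pair the animals: correlations of same-numbered arrays ran from -0.112 to 0.219, 2 of 8 exceeded 0.1, and 0 of 8 arrays matched best with its own number. With the replicate block 600 probes were called, 526 higher and 74 lower, of which 496 were shared. Of 146 called named genes 118 kept the call in all 19 fits that left out an array. Tissue differences numbered 194 with the 38 PBS arrays alone and 19 with no animal block, against 49. The r of Thy1 with Gfap was 0.323 with median centring, against -0.0736. The cause of these changes was not tested. The share of higher calls was 94.2% with median centring and 77.2% without APP/PS1 replicate 4, against 87.7%. Genes near background have differences that the offset compresses.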

Other observations

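Of the 609 called probes, 35 had no symbol in the tables used here, 31 higher and 4 lower. Of 122 called genes with several probes, 61 had all of them called and 0 had probes called in opposite directions. Outside the antigen presentation genes, APP/PS1 replicate 5 also stood above the other 18 PBS cortical arrays at Fpr2 (6.42), a formyl peptide receptor, Plac8 (6.80) and secretin (Sct, 6.71). Of 223 solute carriers tested, 10 rose and 1 fell, with a median of -0.01, which is near the shares over all probes (3.66% higher and 0.514% lower). These genes were looked at after their values were seen.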
